A study of Arabidopsis thaliana with 12 samples.

Results

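The genes described here are 44 Arabidopsis thaliana loci whose transcripts read higher when an LBD16 fusion protein was activated with dexamethasone (DEX). This held both without and with cycloheximide (CHX), a blocker of protein synthesis. How far synthesis was blocked in these roots was not measured here. The 44 genes were chosen from the measured values. A gene was taken when it is named by its locus identifier alone, when its mean log2 value was at least 0.7 higher with DEX than with mock treatment and at least 0.7 higher with DEX and CHX than with CHX, and when in both pairs every array with DEX lay above every array without it. A difference of 0.7 on the log2 scale is 1.62-fold. Of 16550 genes measured, 14745 are named by locus alone, and 44 of these met the rule after 5 loci had been set aside. The thresholds were also met by 3 of the 5 loci set aside, AT1G62770, AT4G37295 and AT5G65320, and by 4 genes with a symbol, IDL4, MT1B, SDH2-3 and WES1. Because the DEX values chose the genes, both DEX changes and the difference between them are given below as descriptions with no test. Changes with CHX, on which the rule sets no condition, were tested, although they use the same arrays.

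RNA from whole roots was measured on 12 arrays, 3 independent RNA sets for each of 4 treatments. All seedlings were 5 days old and carried 35S::LBD16:GR in the arf7-2 arf19-5 background, so the mutations and the fusion were present in the untreated arrays as well. The treatments lasted 4 hours and were mock (0.1% DMSO), 2 µM DEX, 10 µM CHX, and 2 µM DEX with 10 µM CHX. The 35S promoter drives the fusion in most cells rather than in the cells that normally make LBD16, the labels name 1 transgenic genotype, and no array shows DEX in roots without the fusion. The labels give the vehicle for the mock treatment only. The p-values below measure the spread between these RNA sets. In whole roots, a change in the RNA of each cell and a change in the number of cells of a type cannot be told apart.

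LBD16 belongs to the LATERAL ORGAN BOUNDARIES DOMAIN family of plant transcription factors. In roots it is switched on by auxin through ARF7 and ARF19 and acts in the first steps of lateral root formation, when pericycle cells prepare to divide. A transcription factor joined to the steroid-binding domain of the mammalian glucocorticoid receptor (GR) is held outside the nucleus until a steroid such as DEX is given. Cycloheximide stops translation, so a transcript that responds to DEX in its presence is commonly read as responding without a newly made protein in between. CHX also stabilises many short-lived transcripts, which is why its own effect on each gene is described beside the DEX effects.

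Array values are the authors' log2 expression values, in which 1 unit is a 2-fold difference. Across genes, arrays that shared a treatment had correlations between 0.992 and 0.994. The defining markers that could be read were few. Only rows that the platform annotation pairs with 1 gene were used, and it leaves 20927 of 38408 rows unnamed. Of 12 listed root genes 2 were measured, the root hair expansins EXPA7 at 8.15 ± 0.16 (SD, n = 3) and EXPA18 at 10.42 ± 0.06 in mock arrays, and of 6 listed shoot genes 2 were measured, RCA at 7.45 ± 0.28 and PORB at 4.96 ± 0.25. None of the 4 was called in either DEX comparison. The LBD16 row read between 9.33 and 9.60 as a mean in all 4 treatments. Whether it reads the native transcript, that of the fusion or both was not tested. Of the 44 genes, 15 had a mean below 4.15 in mock or CHX arrays, or in both, which is the limit of the dimmest 30% of genes. No detection call was used here.

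The DEX responses of the 44 genes differed widely in size. DEX against mock ranged from 0.70 to 2.84 with a median of 1.23 on the log2 scale, and DEX with CHX against CHX from 0.70 to 4.09 with a median of 0.98. At least a 2-fold difference was read for 30 genes in the first comparison, for 22 in the second and for 16 in both. Among all 16550 genes, 1.11% met the condition of the rule for DEX against mock and 0.701% that for DEX with CHX against CHX. Nothing is read from those shares, since the rule used them.

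**Figure D1:**
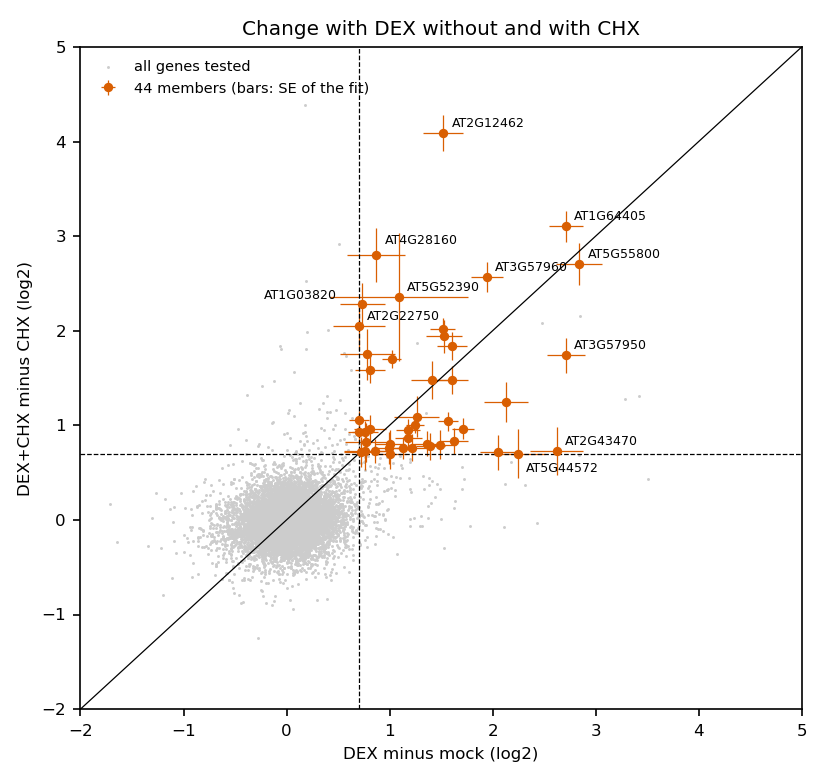
Log2 change with DEX without CHX (horizontal axis) against the change with DEX under CHX (vertical axis), with the 44 genes in orange, bars for the standard error of the fit, and all genes tested in grey. The dashed lines mark the rule's minimum of 0.7 and the solid line marks equal changes; 24 of the 44 genes lie on the side of a larger change without CHX and 20 on the other.

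The edge of the rule was narrow. Just inside stood AT5G44572 with 0.7008 under CHX, AT2G22750 with 0.7011 without CHX and AT5G62350 with 0.7012 under CHX. Just outside stood AT4G15660 with 0.6978, AT4G34500 with 0.6939 and AT1G75620 with 0.6939, all under CHX, and all of them above 0.77 without CHX. The arrays of AT4G34500 and AT1G75620 were as cleanly separated by DEX as those of the 44, while those of AT4G15660 overlapped under CHX.

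By the smaller of its DEX changes, AT1G64405, a gene of no assigned function here, stood first among the 44 (2.71), with AT5G55800 next to it (2.70) and the gap far within their standard errors. It read 2.67, 3.01 and 3.14 with mock and 5.81, 5.66 and 5.49 with DEX. Under CHX it read 1.95, 2.32 and 2.39 without DEX and 5.12, 5.32 and 5.54 with it. The 6 arrays with DEX all lay far above the 6 without it, and the mean difference was 6.55-fold without CHX and 8.60-fold with it. Both untreated means, 2.94 and 2.22, were below the limit of the dimmest 30% of genes.

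AT5G55800, which encodes a cysteine- and histidine-rich protein of the C1 domain type, gave nearly the same picture at a higher signal. It read 4.23, 4.58 and 4.58 with mock, 7.41, 7.59 and 6.91 with DEX, 4.14, 4.85 and 4.69 with CHX and 7.48, 7.37 and 6.94 with both. The mock and CHX arrays overlapped, as did the DEX arrays with and without CHX. Its DEX changes were 2.84 ± 0.22 (SE) and 2.70 ± 0.22, and CHX was called neither without DEX (0.10, limma adjusted p = 0.75) nor with it (-0.04, 0.893).

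AT3G57960 and AT3G57950, which are next to each other in the genome, were both among the strongest. AT3G57960 read 3.84, 4.00 and 3.83 with mock, 6.04, 5.57 and 5.90 with DEX, 4.60, 4.21 and 4.46 with CHX and 6.93, 7.27 and 6.78 with both. AT3G57950 read 6.41, 6.59 and 5.99 with mock, 9.02, 9.25 and 8.86 with DEX, 6.49, 6.30 and 6.23 with CHX and 8.26, 8.27 and 7.71 with both. The neighbours leaned in opposite directions under CHX. The DEX change of AT3G57960 was 1.95 without and 2.57 with CHX, while that of AT3G57950 was 2.71 without and 1.74 with it. With DEX present, CHX raised AT3G57960 by 1.15 (standard error 0.16, 3 arrays per treatment, adjusted p = 4.76e-05 by limma) and lowered AT3G57950, which fell by 0.96 (SE 0.19, adjusted p = 0.000738).

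**Figure D2:**
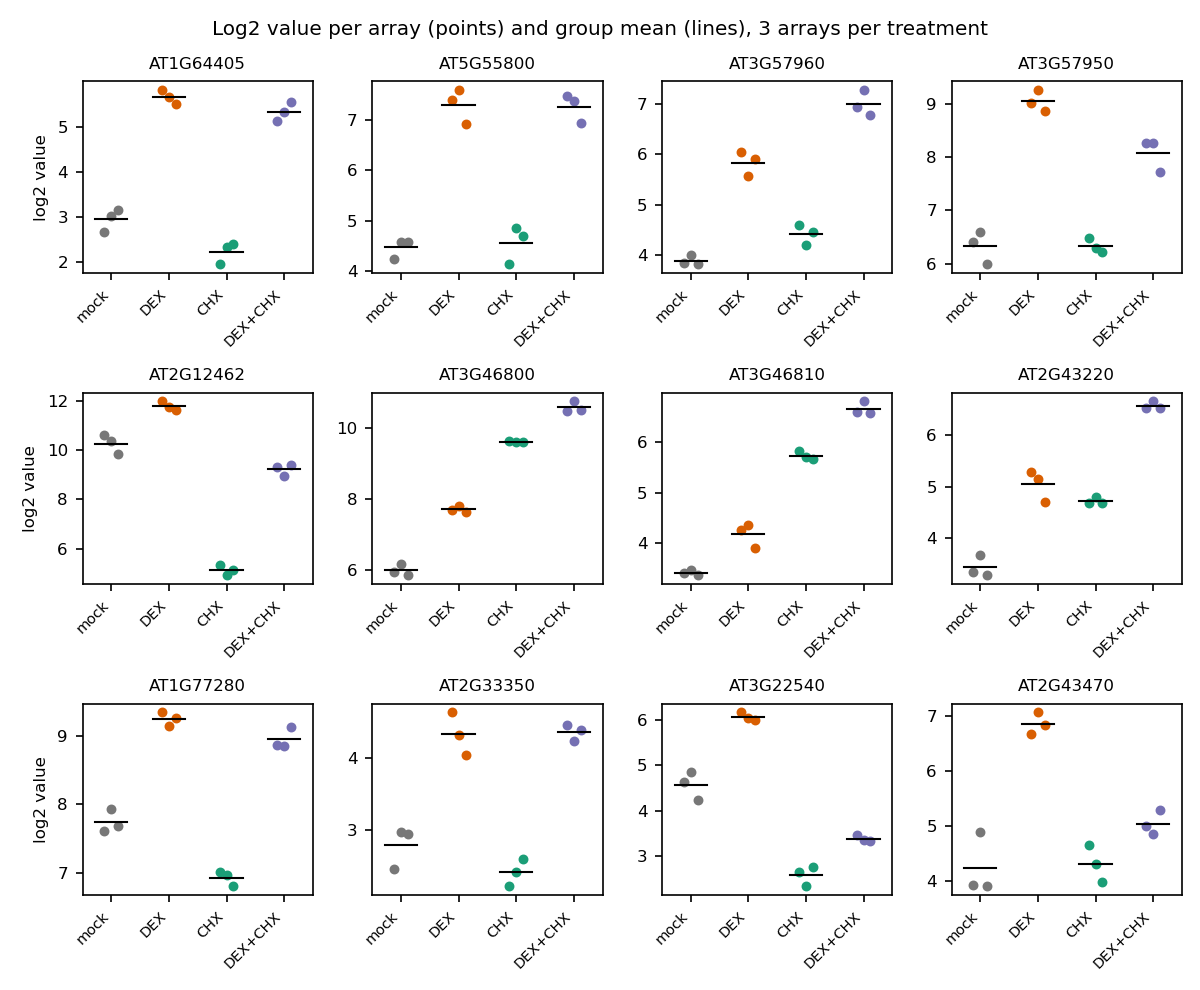
Log2 value on each of the 12 arrays for 12 of the 44 genes, 1 panel per gene with its own vertical axis; points are arrays and lines are means of the 3 arrays of a treatment. In each panel the DEX points lie above the mock points and the DEX+CHX points above the CHX points, while the CHX level ranges from 5.13 units below mock for AT2G12462 to 3.62 above it for AT3G46800.

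AT2G12462 had the largest DEX change under CHX of the 44 genes. It read 10.60, 10.35 and 9.85 with mock and 11.98, 11.74 and 11.64 with DEX, so it was already strong and became stronger. CHX alone took it to 5.34, 4.93 and 5.12, and DEX with CHX brought it back to 9.33, 8.96 and 9.40. That is 17.1-fold above CHX alone and still below every mock array. The fall with CHX alone was 35.1-fold (log2 change -5.13 ± 0.19 SE, adjusted p = 6.51e-10, limma), the largest CHX effect among the 44.

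The genes were then grouped by what their proteins are known to be, as far as this is well established. The grouping was made after the values were known, rests on general knowledge rather than on the annotation used here, and carries no test. It placed 27 genes and left 17 without a group.

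Regulators of transcription made up 5 of the 44. They are AT2G22750 and AT4G28790, both basic helix-loop-helix factors, AT4G18450, an ethylene response factor of the AP2/ERF family, AT2G33350, a CCT domain protein, and AT5G08480, a VQ motif protein of a family that partners WRKY factors. Their DEX changes ran from 0.70 to 1.53 without CHX and from 0.81 to 2.05 with it, and for 4 of the 5 the change was larger under CHX. AT2G33350 read 2.46, 2.97 and 2.94 with mock, 4.63, 4.31 and 4.03 with DEX, 2.22, 2.42 and 2.60 with CHX and 4.45, 4.23 and 4.38 with both. Its levels with DEX overlapped between the arrays with and without CHX. AT2G22750 entered the list by a hair without CHX, with 3.82, 4.49 and 4.24 against 4.50, 5.06 and 5.09, where the top mock array and the lowest DEX array were almost equal. Under CHX its arrays were far apart, at 4.32, 4.60 and 5.28 without and 6.92, 6.58 and 6.85 with DEX. AT4G18450 showed the same lean, with 0.81 without and 1.59 with CHX. AT4G28790 differed in its baseline, which CHX alone lowered from 6.29 ± 0.14 (SD) to 4.25 ± 0.43, while its DEX changes of 0.77 and 0.82 were nearly alike. AT5G08480 was the 1 regulator with the larger change without CHX, 1.36 against 0.81.

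Signalling proteins made up another 5. Protein kinases were AT1G77280, which joins a kinase to a universal stress protein type domain, AT3G61160, of the GSK3/shaggy-like family, and AT3G01490. AT1G24620 is a calmodulin-like calcium-binding protein and AT1G49450 a WD40 repeat protein. AT1G77280 was the strongest of them, at 7.60, 7.93 and 7.68 with mock, 9.35, 9.15 and 9.26 with DEX, 7.01, 6.97 and 6.80 with CHX and 8.87, 8.85 and 9.13 with both. CHX alone lowered it by 0.81 (adjusted p = 8.18e-05, limma), and with DEX present its level fell by 0.30 (0.045), a call lost without any single array of DEX replicates 1 and 3, CHX replicates 1 and 2, DEX+CHX replicates 1 and 2 and mock replicate 3, with adjusted p from 0.0529 to 0.143. AT3G61160 varied little between replicates, at 6.59, 6.65 and 6.70 with mock, 7.92, 7.96 and 7.82 with DEX, 6.82, 6.95 and 6.80 with CHX and 7.81, 7.83 and 7.94 with both. Its DEX changes were 1.25 ± 0.09 and 1.00 ± 0.09 (SE), and neither CHX comparison was called. AT1G49450 changed by 1.26 and 1.09, AT1G24620 by 1.18 and 0.87, and AT3G01490 by 0.81 and 0.96. Their baselines went opposite ways with CHX alone, since AT1G24620 rose by 1.25 (adjusted p = 5.19e-06, limma) while AT1G49450 fell by 1.28 (adjusted p = 0.000271).

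Cysteine- and histidine-rich C1 domain proteins, whose zinc-binding modules resemble the diacylglycerol-binding domain of animal kinases, made up 4 genes. Besides AT5G55800 these were AT2G43220 and the adjacent pair AT3G46800 and AT3G46810. AT2G43220 read 3.35, 3.68 and 3.29 with mock, 5.28, 5.15 and 4.71 with DEX, 4.69, 4.79 and 4.68 with CHX and 6.52, 6.65 and 6.51 with both. Either agent alone brought it to a similar level and both together took it further, to 3.58-fold above CHX alone. AT3G46800 read 5.95, 6.17 and 5.86 with mock, 7.68, 7.81 and 7.64 with DEX, 9.64, 9.60 and 9.60 with CHX and 10.47, 10.75 and 10.51 with both. AT3G46810 read 3.40, 3.47 and 3.37 with mock, 4.27, 4.36 and 3.91 with DEX, 5.83, 5.70 and 5.67 with CHX and 6.59, 6.81 and 6.58 with both. In both neighbours CHX alone exceeded DEX alone on every array, and DEX added 0.96 and 0.93 on top of CHX. CHX alone raised AT3G46800 12.3-fold (adjusted p = 1.24e-10, limma), AT3G46810 4.98-fold (adjusted p = 1.21e-08) and AT2G43220 2.43-fold (adjusted p = 1.14e-05). How far the probes of these related genes read each other's transcripts was not tested.

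Cell wall and secreted proteins were the largest group, with 8 genes. AT3G59850 is of the polygalacturonase type that cuts pectin, AT5G62350 belongs to the invertase and pectin methylesterase inhibitor family, and AT2G43590 to the chitinases. AT5G64100 is a class III peroxidase, AT1G30760 a berberine-bridge-enzyme-like oxidase, AT5G55050 a GDSL-type lipase, AT4G00165 a protein of the lipid-transfer type and AT4G28160 a hydroxyproline-rich glycoprotein. AT5G55050 read 8.34, 8.31 and 8.13 with mock and 10.25, 10.42 and 10.49 with DEX, against 8.30, 7.85 and 7.92 with CHX and 9.84, 9.07 and 8.90 with both. Its DEX level was lower under CHX on every array, by 1.12 as a mean. AT2G43590 behaved evenly, with changes of 1.41 and 1.48 from means of 8.54 with mock and 9.18 with CHX. AT1G30760 stood at the other extreme, at 5.28, 5.01 and 4.92 with mock, 7.13, 7.07 and 7.18 with DEX, 4.70, 4.91 and 4.26 with CHX and 5.60, 5.39 and 5.01 with both. Its change was 4.16-fold without CHX and 1.64-fold with it. AT3G59850, AT5G62350 and AT5G64100 changed by 1.18, 1.00 and 0.99 without CHX and by 0.96, 0.70 and 0.76 with it.

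AT4G00165 and AT4G28160 leaned towards CHX. AT4G00165 read 5.99, 6.05 and 5.95 with mock, 6.51, 6.95 and 6.88 with DEX, 7.24, 8.48 and 7.56 with CHX and 9.20, 9.87 and 9.46 with both, so that CHX alone already exceeded DEX alone. AT4G28160 has 2 rows on the array, and only the dimmer row met the rule. That row read 1.96, 1.64 and 1.81 with mock and 2.61, 2.85 and 2.56 with DEX, close to the bottom of the scale, and 4.23, 4.70 and 3.82 with CHX and 7.58, 7.14 and 6.43 with both. The brighter row, with means of 3.89 ± 0.07, 4.38 ± 0.32, 5.34 ± 0.04 and 6.51 ± 0.09 (SD, n = 3) in the same order, gave smaller DEX changes of 0.48 and 1.16. The rows share the direction and differ in size, and calls below use the brighter row.

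Enzymes and a transporter of small molecules made up 4 genes. AT3G46720 is a UDP-glycosyltransferase, AT5G58660 a 2-oxoglutarate-dependent oxygenase, AT3G30380 an alpha/beta hydrolase and AT2G04090 a MATE-type transporter. AT5G58660 responded most without CHX, at 1.63 against 0.83 with CHX. AT3G46720 stood at 1.13 and 0.76, AT2G04090 at 0.86 and 0.73, and AT3G30380 at 0.71 and 1.05. AT2G04090 and AT3G30380 were bright on all 12 arrays, with mock means of 10.08 and 9.37. The remaining grouped gene, AT2G16360, encodes a ribosomal protein of the small subunit and was dim throughout, at 3.79, 3.15 and 3.71 with mock, 4.34, 4.44 and 4.15 with DEX, 2.80, 3.40 and 2.66 with CHX and 3.76, 3.48 and 3.81 with both. Under CHX its lowest array with DEX was just above its highest array without it.

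Of the 17 genes with no group, AT1G64405, AT3G57960, AT3G57950 and AT2G12462 are described above. AT1G23150 responded to nearly the same extent in both conditions, with 1.61 without and 1.48 with CHX, and it was called in neither CHX comparison. AT2G43470 and AT5G44572 responded mostly without CHX. AT2G43470 read 3.92, 4.88 and 3.90 with mock, 6.67, 7.07 and 6.83 with DEX, 4.65, 4.29 and 3.98 with CHX and 5.00, 4.84 and 5.28 with both. AT5G44572 read 4.19, 4.64 and 5.16 with mock, 6.33, 7.15 and 7.25 with DEX, 5.06, 5.04 and 5.01 with CHX and 5.73, 5.52 and 5.96 with both. In both genes the mean with both agents lay between the untreated means and the DEX mean, and for AT2G43470 the lowest array with both agents was below the highest mock array. AT1G03820 leaned the other way, from 1.33, 1.28 and 1.24 with CHX to 3.80, 3.21 and 3.70 with both, against 3.92, 3.83 and 3.06 with mock and 4.24, 4.57 and 4.19 with DEX. Its change without CHX depended on mock replicate 3, since leaving that array out gave 0.46 in place of 0.73.

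AT5G52390 was the least certain of the 44. It read 3.64, 4.20 and 3.78 with mock, 5.21, 4.34 and 5.35 with DEX, 3.51, 3.20 and 4.87 with CHX and 8.08, 5.55 and 5.02 with both. DEX+CHX replicate 1 stood far above the other two, and the DEX change under CHX of 2.36 came to 1.43 without DEX+CHX replicate 1. There were 8 more genes without a group. AT1G71015 changed by 1.57 without and 1.04 with CHX, AT3G54740 by 1.02 and 1.70, and AT3G22540 by 1.49 and 0.79. AT3G20300 stood at 1.40 and 0.78, AT2G39690 at 1.21 and 0.76, and AT1G20070 at 1.00 and 0.80. AT3G14595 and AT1G79160 were near the minimum of the rule, at 0.70 and 0.93 for the first and 0.72 and 0.72 for the second.

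Set side by side, the DEX changes of a gene lay within 0.5 of each other on the log2 scale for 23 of the 44 genes. Nothing is read from that count, as the rule bears on both changes and no share over all genes was taken. The change was larger without CHX by at least 0.5 for 11 genes and larger under CHX by at least 0.5 for 10. Differences of at least 1 unit were read for 3 genes on the first side, AT2G43470 (-1.89 ± 0.36 SE), AT5G44572 (-1.55 ± 0.37) and AT1G30760 (-1.34 ± 0.26). On the other side there were 5, AT2G12462 (2.57 ± 0.27), AT4G28160 in its dimmer row (1.93 ± 0.40), AT1G03820 (1.56 ± 0.31), AT2G22750 (1.35 ± 0.36) and AT5G52390 (1.27 ± 0.95). The standard error of AT5G52390 is close in size to its difference. As the rule required a response in both conditions, genes that respond in 1 condition alone could not enter.

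The effect of CHX itself was tested in the absence of DEX (CHX against mock) and in its presence (DEX with CHX against DEX). CHX alone raised 12 of the 44 genes (27.3%) and lowered 18 (40.9%), while 14 were not called, by limma at an adjusted p below 0.05 over all 16550 genes with 3 arrays per group. Over the whole array 24.2% rose and 30.7% fell, and the median change was -0.08 over all genes and -0.20 over the 44. With DEX present, CHX raised 12 (27.3%) and lowered 24 (54.5%), against 23.3% and 32.5% of all genes, with medians of -0.12 over all genes and -0.48 over the 44. The 44 genes moved with CHX in both directions, as did all genes measured. These counts depend on the scale, since quantile normalization turned the share of higher genes among all called from 44.04% to 64.31% for CHX against mock and from 41.8% to 64.08% with DEX present. Under it, 18 of the 44 were called higher and 16 lower for CHX against mock, and 15 and 19 with DEX present. With each array centred on its median over the 16550 genes, as here and below, the counts were 12 and 21, and 12 and 25. Of all called genes, 36.32% and 34.91% were then higher. That median ran from 5.87 to 5.92 without CHX and from 5.98 to 6.03 with it. Over all rows of the table, which quantile normalization used, array medians went the other way, from 6.07 to 6.14 without CHX and from 5.62 to 5.68 with it. Centring on the median of all rows was not run.

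**Figure D3:**
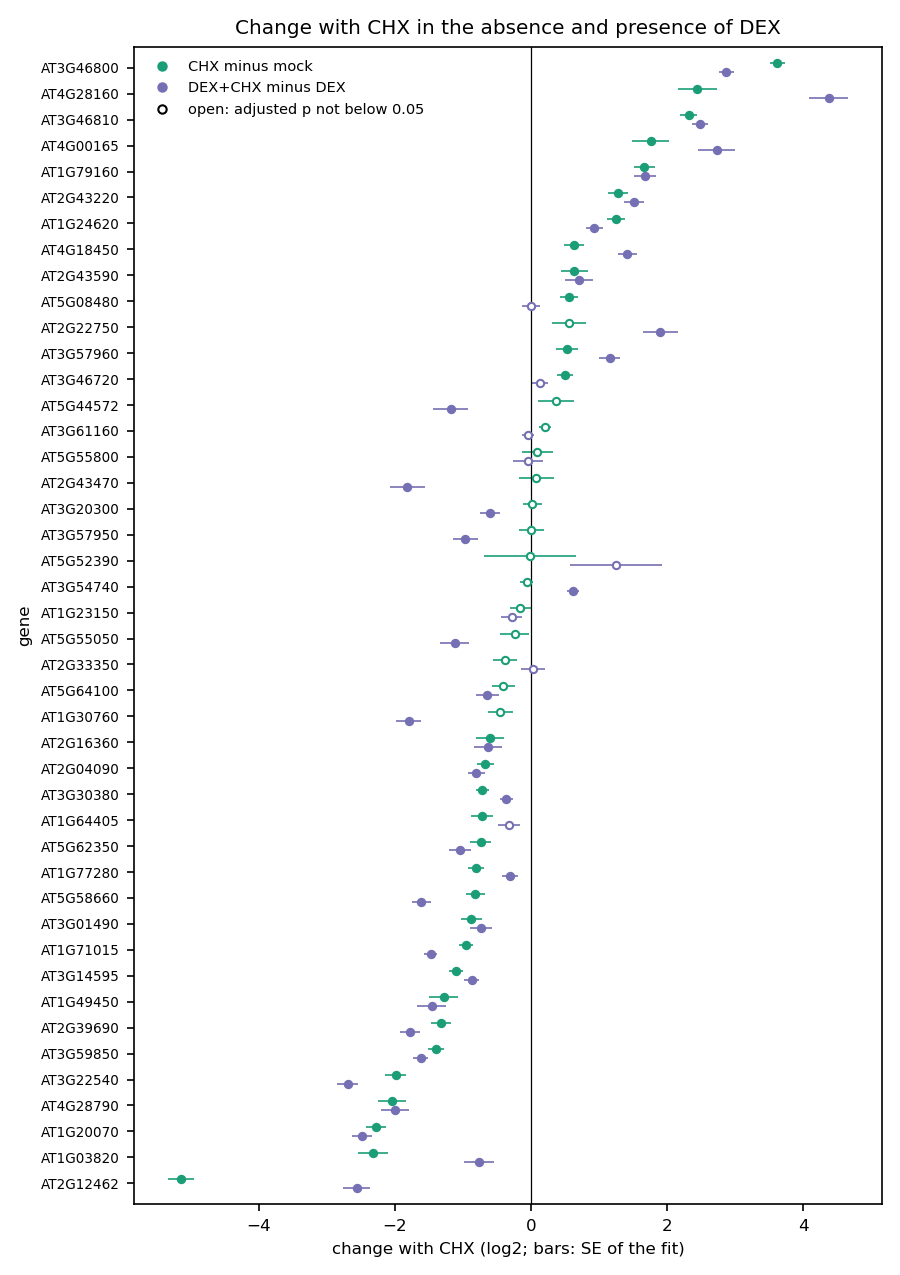
Log2 change with CHX for each of the 44 genes without DEX (green, CHX minus mock) and with DEX (purple, DEX+CHX minus DEX), ordered by the first; bars are standard errors of the fit and open points have an adjusted p not below 0.05. The changes run from -5.13 for AT2G12462 to 3.62 for AT3G46800 without DEX, and the dimmer row of AT4G28160 reaches 4.37 with DEX.

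Genes that CHX alone lowered were led by AT2G12462, AT1G03820 (4.98-fold, adjusted p = 2.05e-06, limma), AT1G20070 (4.85-fold, 7.57e-08), AT4G28790 (4.11-fold, 3.42e-06) and AT3G22540 (3.97-fold, 3.59e-07). AT3G22540 shows the pattern. It read 4.63, 4.85 and 4.23 with mock and 6.17, 6.03 and 5.99 with DEX, and 2.65, 2.34 and 2.76 with CHX and 3.45, 3.34 and 3.34 with both, so that every array with both agents was below every mock array. AT1G20070 did the same at 7.30, 8.30, 5.02 and 5.82 as means in that order. AT3G59850, AT2G39690, AT1G49450 and AT3G14595 also fell by more than 1 unit with CHX alone, and AT1G71015, AT3G01490, AT5G58660, AT1G77280, AT5G62350, AT1G64405, AT3G30380, AT2G04090 and AT2G16360 fell by less. The call of AT5G58660 was lost with quantile normalization, at -0.34 (adjusted p = 0.0589) in place of -0.82, and so was that of AT2G16360, at -0.24 (0.335). The call of AT2G16360 (adjusted p = 0.0281) was lost without any single array of mock or CHX replicates 1 and 3 (0.0914 to 0.115), and its call with DEX present (adjusted p = 0.0218) without DEX replicate 1 or 2 or DEX+CHX replicate 2 (0.0531 to 0.0826). Of these 18 genes 17 also fell with CHX when DEX was present, AT1G64405 being the exception at -0.33 (adjusted p = 0.112). Centring each array on its median called AT1G64405 lower there as well, at -0.43 (0.0376). With quantile normalization 4 of the 17 were no longer called with DEX present, AT1G03820 at -0.30 (adjusted p = 0.238) in place of -0.76, AT3G01490 at -0.21 (0.282) in place of -0.73, AT1G77280 at -0.20 (0.172) in place of -0.30 and AT2G16360 at -0.17 (0.493) in place of -0.63.

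Genes that CHX alone raised were led by the C1 domain genes AT3G46800 and AT3G46810, by AT4G00165 (3.39-fold, adjusted p = 0.000127, limma), AT1G79160 (3.17-fold, 2.3e-06) and AT4G28160, whose brighter row rose by 1.45 (adjusted p = 2.05e-06). AT1G79160 read 5.96, 5.56 and 5.65 with mock, 6.51, 6.52 and 6.30 with DEX, 7.47, 7.46 and 7.24 with CHX and 8.42, 8.11 and 7.80 with both. CHX thus added 1.67 without and 1.67 with DEX, and DEX added 0.72 without and 0.72 with CHX. The others were AT2G43220, AT1G24620, AT4G18450, AT2G43590, AT5G08480, AT3G57960 and AT3G46720. Of the 12, 10 also rose with CHX when DEX was present, while AT5G08480 stood at 0.00 and AT3G46720 at 0.13 there. Quantile normalization put AT3G46720 at 0.30 with DEX present, which was called higher (adjusted p = 0.0342). The calls of AT3G57960 (without CHX replicate 1, adjusted p = 0.0539) and AT2G43590 (without mock replicate 2, 0.0727, and without CHX replicate 2, 0.0641) each rested on single arrays.

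Called with CHX in the presence of DEX but not in its absence were AT3G54740 and AT2G22750, which rose, and 7 genes that fell, AT2G43470, AT1G30760, AT5G44572, AT5G55050, AT3G57950, AT5G64100 and AT3G20300. For AT3G54740 the change was 0.62 (adjusted p = 0.000119, limma) against -0.06 without DEX (0.624), the latter being 0.34 and called higher with quantile normalization. AT3G20300, at -0.60 (adjusted p = 0.00288), was no longer called with quantile normalization (-0.24, 0.183). For CHX against mock, quantile normalization also called AT2G22750 (1.01, adjusted p = 0.00459), AT5G44572 (0.85, 0.0161) and AT3G20300 (0.50, 0.0128) higher. In the same comparison, centring each array on its median called AT1G30760 (-0.57, 0.0201) and AT5G64100 (-0.52, 0.0204) lower. For AT2G43470 the change was -1.82 (adjusted p = 6.08e-05) against 0.08 (0.824). The difference between the CHX effects of a gene equals the difference between its DEX effects, which the rule bears on, and was not tested. The 5 genes called in neither CHX comparison were AT5G55800, AT2G33350, AT1G23150, AT3G61160 and AT5G52390, and each of them was called in at least 1 comparison under some alternative. With quantile normalization AT5G55800 stood at 0.57 (adjusted p = 0.0425) and AT3G61160 at 0.51 (0.000234) for CHX against mock, and AT2G33350 at 0.52 (0.0177) and AT5G52390 at 1.70 (0.0417) with DEX present. Without DEX replicate 2, AT1G23150 stood at -0.40 (0.049) with DEX present. Leaving out single arrays also brought calls for CHX against mock, for AT1G30760 (without CHX replicate 2, DEX+CHX replicate 1 or DEX+CHX replicate 3, adjusted p from 0.0216 to 0.0449) and AT5G64100 (without CHX replicate 2 or DEX replicate 1, 0.00648 and 0.0473). The same held for AT2G33350, lower without mock replicate 1 (-0.54, 0.0199), and AT2G22750, higher without CHX replicate 1 (0.76, 0.0282). AT2G33350 was also called lower for CHX against mock with each array centred on its median (-0.50, 0.03). With DEX present AT5G52390 was called at 1.85 (0.0384) without DEX+CHX replicate 3. For AT3G61160 the change was 0.21 ± 0.09 (SE, adjusted p = 0.0635) without DEX, and its CHX arrays all lay above its mock arrays.

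The order of the group means followed from both effects. The highest mean was that of DEX alone for 28 genes and that of DEX with CHX for 16. For 10 genes the mean with both agents was still below the mock mean, and for 6, AT3G46800, AT3G46810, AT4G28160, AT4G00165, AT1G79160 and AT1G24620, the mean with CHX alone was above that with DEX alone. These orders are descriptions, and no share over all genes was taken. Where the means with and without CHX lay close, their order depended on the scale. Quantile normalization took DEX+CHX minus DEX from -0.33 to 0.17 for AT1G64405, and centring took it from 0.03 to -0.07 for AT2G33350. Neighbours in the order did not always separate, as for AT1G24620, whose CHX arrays at 6.04, 5.85 and 5.53 overlapped its DEX arrays at 5.84, 5.77 and 5.61.

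**Figure D4:**
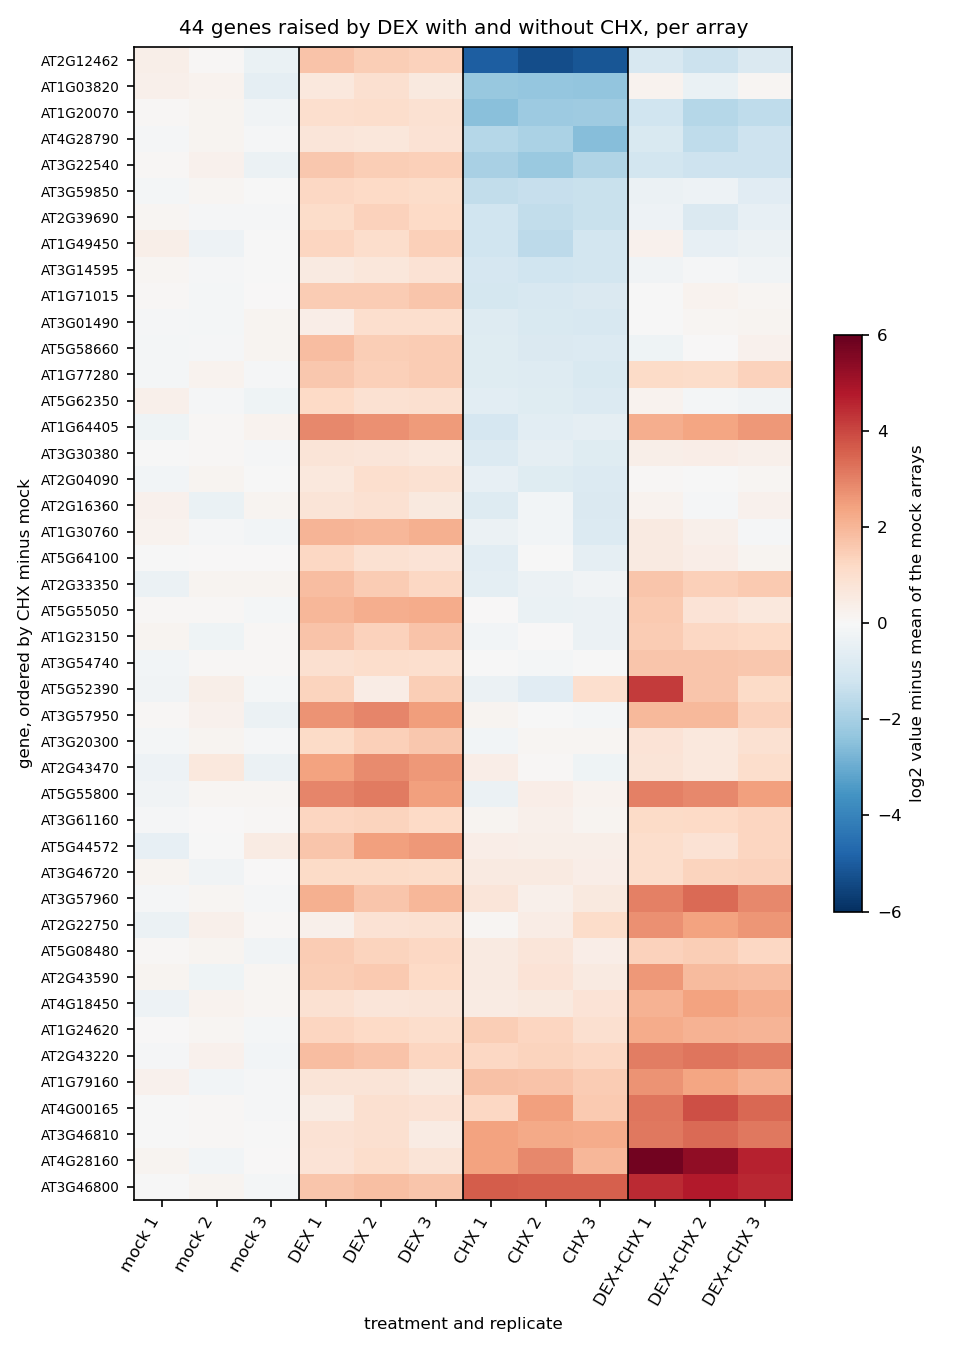
Log2 value of each of the 44 genes (rows) on each of the 12 arrays (columns) minus the gene's mean over the 3 mock arrays, with red above and blue below mock, ordered by CHX minus mock. The DEX columns are red throughout, as the rule requires, while the CHX columns run from blue at the top (AT2G12462, -5.13) to red at the bottom (AT3G46800, 3.62).

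Position in the genome was compared through the order of protein-coding genes in RefSeq, assembly TAIR10.1. Of the 44 genes, 4 had another of the 44 directly beside them, the pairs AT3G57950 with AT3G57960 and AT3G46800 with AT3G46810. The genes next to the 44 that are not among them were measured in 60 cases. With DEX against mock 1 of these 60 (1.67%) was called higher and 0 lower by limma, against 1.11% and 0.411% of all genes. With DEX and CHX against CHX 2 (3.33%) were called higher and 0 lower, against 0.55% and 0.0423% of all genes. The called neighbours were NTMC2T6.2, beside AT3G14595, at 0.57 (adjusted p = 0.039) without and 0.96 (0.00222) with CHX, and AT4G28150, beside AT4G28160, at 0.58 (0.403) and 1.73 (0.004). For NTMC2T6.2 the call without CHX was kept without mock replicate 1 or CHX replicate 2 and lost without any of the other 10 arrays (adjusted p from 0.0541 to 0.15). It was also lost with each array centred on its median (0.0579), when every row of the table was tested (0.0723) and when the fit held the DEX and mock arrays alone (0.156), so the count of 1 neighbour without CHX rests on a call that most alternatives end. The 60 neighbours had medians of 0.10 without and 0.05 with CHX, against 0.03 and -0.01 over all genes.

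Few known lateral root regulators around LBD16 could be read by name, and whether the rest lie in rows left unnamed was not tested. Of 35 listed genes 8 were among those the annotation names. Limma over all genes called 1 higher with DEX against mock and 2 with DEX and CHX against CHX, with 0 lower in both. The medians of the 8 were -0.03 and 0.14, against 0.03 and -0.01 over all genes. GH3.5, listed as WES1, an enzyme that conjugates auxin to amino acids, was called in both (2.48, adjusted p = 2.45e-07, and 2.09, 1.84e-06), and it is also 1 of the 4 genes with a symbol that met the thresholds. PUCHI, an AP2/ERF factor of lateral root primordia, was called under CHX (1.31, adjusted p = 0.00614) and stood at 0.40 (0.498) without it. LBD16, LBD29, ACR4, RALFL34, CEP5 and LHW were not called in either comparison, and none of the 8 is among the 44. The LBD16 row may include the transcript of the fusion, as said above.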

How the data were processed

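Per the labels' protocols, total RNA was purified on plant columns and turned into biotin-labelled sense-strand DNA targets. Affymetrix Expression Console 1.3 is named in the submitters' processing notes. How values were summarized and normalized is not given in the sources used here. Values in the deposited table run from 0.426 to 13.98, were read as log2 expression, and were used as they are.

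Of 38408 rows, the platform annotation paired 16722 with 1 gene and 759 with several, and left 20927 unnamed. This gave 16550 genes, each read from its brightest row, of which 16411 matched RefSeq (TAIR10.1). The rule for the 44 genes was applied to rows.

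With R 4.3.3 and limma 3.58.1, treatment means were estimated from all 12 arrays together, and two-sided eBayes tests were adjusted by Benjamini-Hochberg over 16550 genes. Calls have an adjusted p below 0.05. The fit was tested on simulated data. The number of arrays limits the precision. The genes, lists, tests and alternatives were chosen with earlier results of these data known. Any of the 44 genes may be named, as may genes at the edge of the rule and lateral root regulators. Neighbours were compared after seeing the data, and those called are named.

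Planned comparisons with family relatives and of promoter motifs were not run, since the annotation used here gives no family names or sequences. Deviations from group means correlated at 0.244, 0.157 and 0.332 between same-numbered arrays of CHX and of both agents, read as pairs from the data. The main fit left this pairing out, so its p-values for DEX with CHX against CHX ignore it. For CHX and mock (0.111, 0.077, 0.211) and for DEX with and without CHX (0.085, 0.073, 0.189) the correlations were lower for each number. Although every array still correlated best with its own number there, those arrays were not read as pairs. The p-values of the main fit for both CHX comparisons therefore leave out any such pairing as well. DEX and mock arrays gave 0.073, 0.053 and 0.227.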

Additional observations from a re-analysis of the deposited data

How the results depend on the processing

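Leaving out 1 array at a time changed the genes meeting the rule from 44 to between 38 and 49, which held as few as 35 of the 44 when CHX replicate 3 was left out and 36 when DEX+CHX replicate 1 was, and a minimum of 1 on the log2 scale left 16. Quantile normalization gave 36 genes, of which 34 were among the 44, and centring gave 38, all among the 44. Of the 30 genes called for CHX against mock, 26 kept their call and direction in each alternative that tested them, the exceptions being AT2G16360, AT2G43590, AT3G57960 and AT5G58660. Of the 36 called with DEX present, 31 did, the exceptions being AT1G03820, AT1G77280, AT2G16360, AT3G01490 and AT3G20300. Leaving out the dimmest 30% of genes did not test AT1G03820, AT1G64405, AT2G16360, AT2G33350 or AT3G22540. AT3G54740 for CHX against mock turned from -0.06 to 0.34 (adjusted p = 0.0128) with quantile normalization, where the median of all genes was 0.23 in place of -0.08. Testing all rows of the table called 23040 for CHX against mock and 23549 with DEX present, in place of 9088 and 9235 genes, as more were tested. A replicate block gave 13 genes called higher and 19 lower for CHX against mock, and 12 and 23 with DEX present. It added AT2G22750 as higher (limma adjusted p = 0.0493) and AT1G30760 as lower (0.0261) for CHX against mock. With DEX present AT1G77280 missed the threshold (adjusted p = 0.061). In both CHX comparisons every array correlated best with its own number, a hint of a block from the data. The block ended no call of PUCHI, GH3.5, NTMC2T6.2 or AT4G28150 in the DEX comparisons. Without the dimmest 30% of genes the lateral root list had 1 called gene with DEX and CHX in place of 2, since PUCHI was no longer tested. Low signals limit the 15 genes that start in the dimmest range.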
